A study of Medicago truncatula with 6 samples.

Results

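The genes described here are the nuclear genes of the legume Medicago truncatula that carried a moderate level of small RNAs in control roots. They were chosen by 1 rule, a mean of at least 5 and under 100 CPM (the counts of a gene per 1000000 counts of its library) over the 3 GUS RNAi libraries. The rule found 3712 member genes among 52395 nuclear genes, or 7.08%, in tables of 400216 annotated features. Another 130 nuclear genes had a mean of 100 CPM or more and 48553 had a mean under 5 CPM.

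Small RNA was sequenced from roots with RNAi against SKI3 and from roots with RNAi against GUS, a bacterial reporter gene that serves as an RNAi control. All 6 libraries came from mock-treated roots, the genotype of all is given as WT, and each group had 3 libraries. The title of the series names the cleavage of NNC1 directed by miR172 and nodulation as its subject. The age of the plants, the promoter that drove the RNAi constructs, how the constructs reached the roots and whether replicates came from separate plants are not given in the sources used here. P-values therefore measure the spread between these libraries, which may be technical. The tables hold IDs without gene names, so neither SKI3 itself nor markers of root cells were checked against the labels.

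Plants cut double-stranded RNA into small RNAs with Dicer-like enzymes, of which DCL4 makes mainly the 21 nt class and DCL2 mainly the 22 nt class. These classes guide Argonaute proteins to matching transcripts, and on protein-coding genes they often arise after an RNA-dependent RNA polymerase has copied a cleaved transcript. The SKI complex feeds transcripts to the cytoplasmic exosome, which degrades RNA from the 3′ end, and in Arabidopsis its helicase subunit SKI2 takes part in clearing the fragments left by miRNA-guided cleavage. Read lengths of 21 and 22 nt are named in a line inside the table of SKI3 RNAi replicate 3, and the other tables name none.

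The GUS RNAi libraries held 3974092, 2168297 and 3486290 counts and the SKI3 RNAi libraries 2851473, 2324061 and 2612141 counts, in the order of replicates 1 to 3. A level of 5 CPM corresponded to 10.8 counts in the shallowest library and 19.9 in the deepest. A detection floor of 3 counts lay at 0.755 to 1.38 CPM. In bulk roots, fewer cells that make a small RNA and less of it per cell cannot be told apart. A read may count in more than 1 feature.

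Most members lay near the lower limit of the range. The median over members of the mean GUS RNAi level was 9.18 CPM, 2060 members (55.5%) were under 10 CPM and 145 were at 50 CPM or more. Of the members, 2762 reached 5 CPM in all 3 GUS RNAi libraries, 818 in 2 of them and 132 in 1 alone. At the lower limit, MtrunA17Chr1g0211551 and MtrunA17Chr4g0000541 lay just inside, each with 18, 14 and 14 counts in GUS RNAi. MtrunA17Chr3g0131271 and MtrunA17Chr5g0396421 lay just outside, each with 28, 16 and 2 counts. At the upper limit, MtrunA17Chr3g0112511 with 99.8 CPM and MtrunA17Chr3g0100141 with 99.3 CPM were the last inside, and MtrunA17Chr4g0062571 with 102.2 CPM and MtrunA17Chr5g0441681 with 105.6 CPM were the first outside. These values chose the members and are given as a description.

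The same genes were measured in SKI3 RNAi roots, whose levels the rule did not use. There the median of the mean level was 10.7 CPM. The mean was in the same range for 3454 members (93.0%), under 5 CPM for 238 and 100 CPM or more for 20. All 3 SKI3 RNAi libraries reached 5 CPM for 2706 members and none did for 83. With the same range applied to SKI3 RNAi, 4380 genes were in it, and the 3454 shared genes were 78.9% of them. The median coefficient of variation over members was 19.5% between GUS RNAi libraries and 23.9% between SKI3 RNAi libraries.

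**Figure D1:**
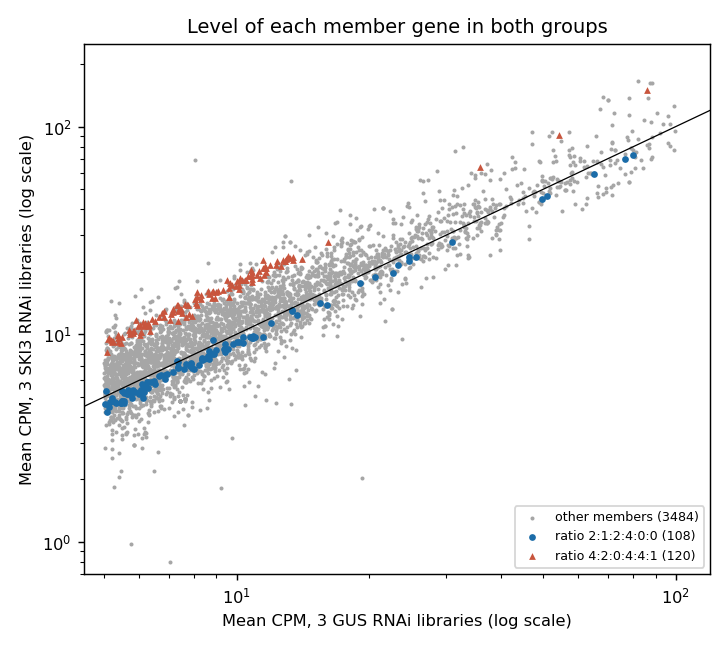
Mean level of each member gene in SKI3 RNAi (vertical axis, CPM, log scale) against GUS RNAi (horizontal axis, CPM, log scale), 3 libraries each, with the line of equal levels and the members of 2 count ratios in colour. The points lie along the line of equal levels, with 238 members under 5 CPM and 20 at 100 CPM or more in SKI3 RNAi.

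Members occurred on all 8 chromosomes at similar rates. They made up 6.24% of the 6142 genes on chromosome 2, 6.89% of 7198 on chromosome 1, 6.90% of 5984 on chromosome 5 and 6.92% of 8209 on chromosome 4. The share was 7.03% of 6718 genes on chromosome 7, 7.20% of 7351 on chromosome 3 and 7.20% of 6267 on chromosome 8. Chromosome 6 had the highest share, with 376 members among 4298 genes, or 8.75%. Of 228 genes on sequence not placed on a chromosome, 24 were members.

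Each chromosome was divided, in the row order of the tables, into 20 bins of equal gene number, from 214 genes in the smallest to 411 in the largest. Along the rows the numbers in the IDs rise, except for a second, higher series of numbers held by 3.60% of genes, which stands among the others in the rows. The share of members in a bin ran from 3.01% to 13.5%, with a median of 6.84%. The 4 highest bins were bin 19 of chromosome 6 with 13.5%, bin 10 of chromosome 6 with 13.1%, bin 11 of chromosome 5 with 13.0% and bin 11 of chromosome 6 with 12.6%. The lowest were bin 9 of chromosome 5 with 3.01% and bin 20 of chromosome 6 with 3.27%. The bins of chromosome 6 were the smallest, so their shares carry the largest counting error. Taken over all 8 chromosomes, the bins ran from 6.02% to 8.28%, about as wide as the range between chromosomes. Gene lengths are not in the files, so these shares are not corrected for length.

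**Figure D2:**
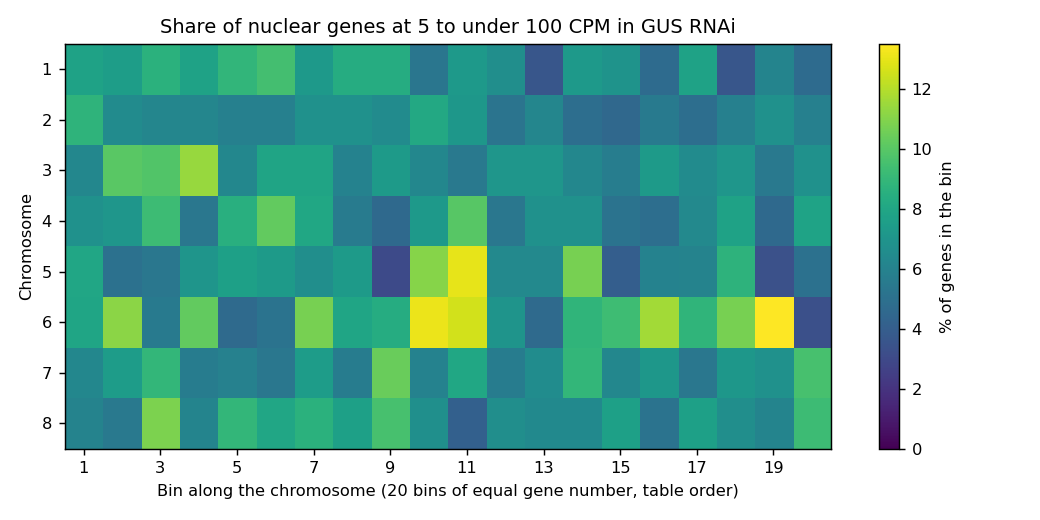
Share of nuclear genes that are members (percent) in 20 bins of consecutive genes along each of the 8 chromosomes, in row order. Shares run from 3.01% to 13.5%, and bins 10, 11 and 19 of chromosome 6 and bin 11 of chromosome 5 stand highest.

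The chromosomes' shares of all member counts differed little between the groups. Chromosome 6 held 10.4%, 10.3% and 10.2% of the member counts in GUS RNAi against 10.6%, 11.0% and 10.8% in SKI3 RNAi. Every SKI3 RNAi library was above every GUS RNAi library there. The difference was 0.493 percentage points, with means of 10.3% ± 0.102 and 10.8% ± 0.196 (SD, n = 3 each), an exact two-sided permutation p of 0.1 and an adjusted p of 0.8 over the 8 chromosomes. An exact p of 0.1 is the smallest that 3 libraries against 3 allow. With members at 10 to under 50 CPM, the difference on chromosome 6 was 0.112 percentage points (exact permutation p = 0.8). Near-equal genes on chromosome 6, which may hold the same reads, each count in its share. MtrunA17Chr6g0465521 and MtrunA17Chr6g0466341 each had 162 CPM in SKI3 RNAi, against 87.5 and 88.1 CPM in GUS RNAi. The share without such genes is not given. Chromosome 3 held 13.6% ± 0.166 in GUS RNAi against 13.2% ± 0.308 in SKI3 RNAi (SD, n = 3 each, exact permutation p = 0.2). The other 6 chromosomes had exact p-values of 0.3 or more.

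Members taken as a whole held 5.29%, 5.52% and 4.77% of the counts of the GUS RNAi libraries and 6.34%, 6.15% and 5.02% of those of the SKI3 RNAi libraries. The groups overlapped, since SKI3 RNAi replicate 3 lay below both GUS RNAi replicates 1 and 2. The means were 5.19% ± 0.381 and 5.84% ± 0.716 (SD, n = 3 each), and the exact two-sided permutation p was 0.3. GUS RNAi levels chose the members and enter this contrast, so these values and p are a description. With members taken from SKI3 RNAi levels the difference was 0.792 percentage points. With members taken from GUS RNAi levels, the difference was 0.642 percentage points. It ran from 0.391 without SKI3 RNAi replicate 1 to 1.05 without SKI3 RNAi replicate 3, where the exact permutation p fell to its minimum of 0.1. Without the 10 most counted features it was 0.367 percentage points.

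No member passed the test between the groups. The test was edgeR's quasi-likelihood test over 48283 features, of which 3703 were members. The other 9 members had enough counts in too few libraries to pass the filter on low counts. At an adjusted p under 0.05, 0 members were called and 0% of all tested features, and the smallest adjusted p of a member was 0.743. DESeq2's Wald test also called 0. At an unadjusted p under 0.05, edgeR gave 307 members (8.29%) against 6.58% of all tested features. DESeq2 gave 153 of 3690 members (4.15%) against 0.574% of its 317122 features, which were not filtered on low counts. Among the features that edgeR tested, DESeq2 gave 4.07% of members against 2.49% of all. Of the 307, 184 were higher in SKI3 RNAi (4.97% of tested members against 3.58% of all features) and 123 were lower (3.32% against 2.99%). The rule set GUS RNAi levels, which enter this contrast, so these counts are a description.

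The distribution of differences was centred near 0. The median log2 fold change of SKI3 RNAi over GUS RNAi was 0.03 for members and 0.02 for all tested features. Of the members, 5% were below -0.56 and 5% above 0.74, and the median standard error was 0.287. A log2 fold change of 1 or more was fitted for 26 tested members (0.702%) and of -1 or less for 25 (0.675%). The share of all tested features past these limits is not given here. All SKI3 RNAi libraries were above all GUS RNAi libraries in CPM for 389 tested members (10.5%, against 10.5% of all tested features) and below them for 140 (3.78%, against 3.6%). Per chromosome, the median log2 fold change ran from -0.03 on chromosome 5 to 0.07 on chromosome 4. Of 472 tested members on chromosome 7, 28 were higher and 27 lower at an unadjusted edgeR p under 0.05. Of 566 on chromosome 4, 35 were higher and 18 lower. The other chromosomes had 17 to 23 members higher and 10 to 16 lower. Over all tested features, 3.58% were higher and 2.99% lower. Differences between chromosomes in these counts were not tested.

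Many members were highest or lowest in the same library. SKI3 RNAi replicate 2 was the highest of the 6 libraries in 1249 members and SKI3 RNAi replicate 1 in 864. GUS RNAi replicate 3 was the lowest in 1174 members and SKI3 RNAi replicate 3 in 708. The level in SKI3 RNAi replicate 1 was over 2 times that of every other library in 193 members. In GUS RNAi replicate 3 it was under 0.5 times that of every other library in 199 members. These counts use CPM without TMM and were not set beside those of all nuclear genes. Whether they are particular to members was not tested.

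A first pattern of this kind was a near-fixed ratio of 2:1:2 over the GUS RNAi replicates and 4:0:0 over the SKI3 RNAi replicates. It was followed, within 0.03 of each library's share of a gene's counts, by 108 members (2.91%) on chromosomes 1 to 8. The member with the most counts in it was MtrunA17Chr3g0089361, with 312, 154 and 314 counts in GUS RNAi against 604, 9 and 10 in SKI3 RNAi. MtrunA17Chr3g0125931 had 198, 100 and 198 counts in GUS RNAi against 397, 1 and 0 in SKI3 RNAi. High counts in SKI3 RNAi thus stood in replicate 1 alone. The 108 members had 86 counts or more over the 6 libraries, with a median of 136. Their share of all member CPM was 2.32%, 2.04% and 2.93% in GUS RNAi against 5.22%, 0.0888% and 0.105% in SKI3 RNAi. Their log2 fold changes ran from -0.34 to 0.03, the smallest edgeR p was 0.720 before adjustment, and 0 of them had an unadjusted p under 0.05. The ratio that picked these members sets their shares, fold changes and p-values, which are given as a description.

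Without SKI3 RNAi replicate 1 most of the members called were of this ratio. Then 173 of 3706 tested members passed an adjusted edgeR p of 0.05, 171 lower and 2 higher in SKI3 RNAi. Of these, 107 followed the ratio within 0.03 and 166 within 0.1, which leaves 7 outside it. The ratio has 0 for SKI3 RNAi replicates 2 and 3, so a lower level there follows from how its members were picked. The share of all tested features past the adjusted limit is not given for this fit. At an unadjusted edgeR p under 0.05 the same fit gave 12.3% of members against 7.22% of all tested features. The ratio was also found in 63 of 5775 genes (1.09%) that were under 5 CPM with at least 30 counts, and in 1 gene at 100 CPM or more. Members of the ratio were scattered over the genome, with 17 of 108 next to another member.

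A second ratio, chosen after its values were seen, was 4:2:0 over the GUS RNAi replicates and 4:4:1 over the SKI3 RNAi replicates. It was followed by 120 members (3.23%), also on chromosomes 1 to 8. The second ratio was also found in 121 of 5775 nuclear genes that were under 5 CPM with at least 30 counts. It was found in 0 genes at 100 CPM or more. This ratio was thus not confined to members. MtrunA17Chr7g0271871 had 513, 272 and 13 counts in GUS RNAi against 521, 512 and 127 in SKI3 RNAi. MtrunA17Chr3g0120001 had 218, 113 and 2 counts in GUS RNAi against 221, 218 and 54 in SKI3 RNAi. Counts were thus low in replicate 3 of both groups. The share of these 120 members in all member CPM was 3.35%, 3.07% and 0.178% in GUS RNAi against 3.94%, 4.96% and 1.43% in SKI3 RNAi. Their log2 fold changes ran from 0.55 to 0.91 with a median of 0.75, and the smallest edgeR p was 0.150 before adjustment. These values and shares also follow from the ratio that picked the members. Together the ratios held 228 members. All 26 members with 0 counts in GUS RNAi replicate 3 followed the second ratio. Members at 0 in at least 1 library numbered 105, of which 69 followed the first.

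**Figure D3:**
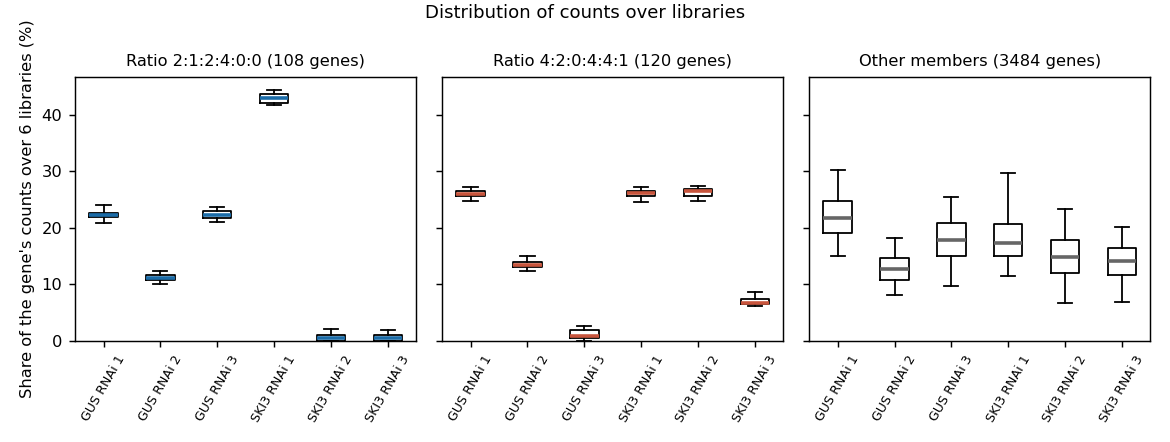
Share of a gene's counts over the 6 libraries (percent) that falls in each library, for the 108 members of the first ratio, the 120 of the second and all other members. Boxes span the quartiles with the median, and whiskers run from the 5th to the 95th percentile. In the first, SKI3 RNAi replicate 1 is high and replicates 2 and 3 are near 0. In the second, GUS RNAi replicate 3 is near 0.

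Some members were also set apart by 1 or 2 libraries. MtrunA17Chr5g0393431 had 32, 20 and 24 counts in GUS RNAi against 225, 289 and 10 in SKI3 RNAi, so replicate 3 of SKI3 RNAi was at the GUS RNAi level or below it. Its log2 fold change was 2.97 ± 0.801 (standard error) with an adjusted edgeR p of 0.743, and 3.50 with an adjusted p of 0.00184 without that library. With no filter on low counts, the same 6 counts gave 2.87 with an adjusted edgeR p of 5.74e-20. The SKI3 RNAi mean of this gene was 69.0 ± 60.9 CPM (SD, n = 3). Its p thus depended on the fit setting, and why was not tested. The lowest SKI3 RNAi mean was that of MtrunA17Chr3g0124641, with 68, 5 and 6 counts in GUS RNAi against 0, 2 and 4 in SKI3 RNAi. MtrunA17Chr1g0175941 had 62, 1 and 4 counts in GUS RNAi against 4, 0 and 4 in SKI3 RNAi. Neither had enough counts in enough libraries to be tested, and both entered the range through GUS RNAi replicate 1. MtrunA17Chr7g0248561 had 76, 18 and 1 counts in GUS RNAi against 2, 11 and 0 in SKI3 RNAi. GUS RNAi replicate 1 was over 2 times every other library in 25 members, these 3 among them.

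The 10 higher members with the smallest p are given next, a choice that itself favours groups that lie apart. MtrunA17Chr4g0010551 had 13.6, 14.8 and 10.3 CPM in GUS RNAi against 31.9, 30.1 and 27.2 CPM in SKI3 RNAi. The groups were apart, with means of 12.9 ± 2.30 and 29.7 ± 2.39 CPM (SD, n = 3 each) and a log2 fold change of 1.12 ± 0.204 (standard error). MtrunA17Chr4g0010571 had the same 6 counts, 54, 32 and 36 in GUS RNAi against 91, 70 and 71 in SKI3 RNAi, so both IDs may hold the same reads. The unadjusted edgeR p of both was 0.000223 and the adjusted p 0.743.

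MtrunA17Chr8g0340791 rested on 66, 35 and 66 counts in GUS RNAi against 92, 99 and 117 in SKI3 RNAi, a log2 fold change of 1.11. MtrunA17Chr1g1003142 had 25.9, 30.4 and 38.1 CPM in GUS RNAi against 61.7, 75.7 and 91.1 CPM in SKI3 RNAi, a log2 fold change of 1.18. Both of these members passed an adjusted edgeR p of 0.05 without SKI3 RNAi replicate 1 and missed it with all libraries. MtrunA17Chr1g1003142 also passed, at 0.00945, with no filter on low counts. MtrunA17Chr5g0430411 had the highest SKI3 RNAi mean of all members, with 67.7, 91.3 and 87.2 CPM in GUS RNAi against 193, 165 and 138 CPM in SKI3 RNAi. Its log2 fold change was 0.91. The other 5 members were MtrunA17Chr4g0044171, MtrunA17Chr3g0138751, MtrunA17Chr3g0139691, MtrunA17Chr7g0241131 and MtrunA17Chr6g0462651. In all 10 the groups did not overlap, log2 fold changes ran from 0.91 to 1.20, and the adjusted p was 0.743.

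Among the 10 lower members with the smallest p, MtrunA17Chr7g0252881 had 12.6, 9.22 and 13.2 CPM in GUS RNAi against 4.21, 5.59 and 4.59 CPM in SKI3 RNAi, a log2 fold change of -1.41. MtrunA17Chr2g0286831 had 31.0, 19.4 and 20.9 CPM in GUS RNAi against 11.9, 6.88 and 9.57 CPM in SKI3 RNAi, a log2 fold change of -1.42. It passed an adjusted edgeR p of 0.05 without SKI3 RNAi replicate 1. With no filter on low counts it also passed, at 0.000702, as did MtrunA17Chr7g0252881 at 0.0155, MtrunA17Chr1g0162311 at 0.00748 and MtrunA17Chr7g0240282 at 0.0358. MtrunA17Chr7g0240282 had 34, 15 and 14 counts in GUS RNAi against 5, 5 and 7 in SKI3 RNAi, the lowest fitted log2 fold change of the 10 at -1.65. The others were MtrunA17Chr1g0162311, MtrunA17Chr2g0325631, MtrunA17Chr3g0078251, MtrunA17Chr1g0166541, MtrunA17Chr7g0218671, MtrunA17Chr1g0185611 and MtrunA17Chr5g0428602. All 10 had groups that did not overlap and an adjusted p of 0.743. MtrunA17Chr7g0218671 was high in GUS RNAi replicate 1, with 43 counts there, 11 and 14 in the other GUS RNAi libraries and 7 in each SKI3 RNAi library.

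**Figure D4:**
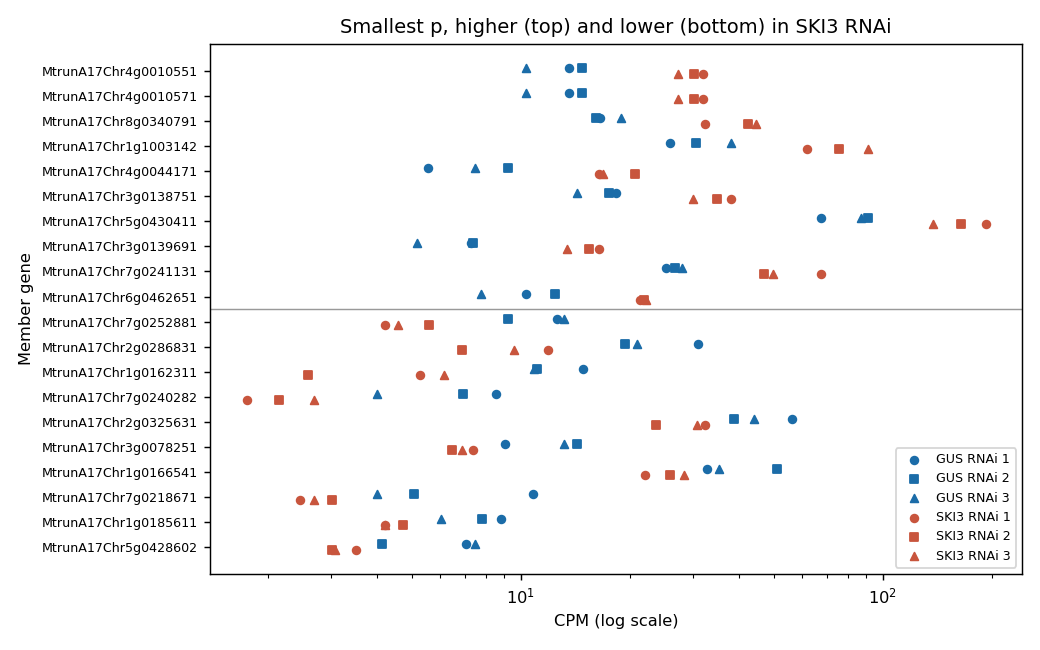
CPM in each of the 6 libraries (log scale) of the 10 higher and the 10 lower members with the smallest p, GUS RNAi and SKI3 RNAi in separate colours. The 3 libraries of a group do not overlap those of the other in any of the 20 genes, and no gene passed an adjusted p of 0.05.

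Many members had another member as their neighbour. A run was 2 or more members in consecutive positions of the ID order of a chromosome, which puts the second series of numbers last. Row order gave 389 runs with 865 members. ID order gave 393 runs with 870 members (23.4%), made of 325 pairs, 57 runs of 3, 6 of 4 and 5 of 5, and 2842 members stood alone. A member was next to 23.4% of members, to 12.7% of genes under 5 CPM and to 23.8% of genes at 100 CPM or more. These shares are given without a test, since neighbours can share reads. Chromosome 6 had the highest share of its members in runs, 29.5%, followed by chromosomes 5 and 8 with 27.1% each, and chromosome 3 had the lowest, 17.2%. In 324 pairs with both genes tested, 202 (62.3%) had fold changes of the same sign. Of all tested members, 53.3% had a fold change above 0. Pairs that hold the same reads may be among the 324, and the share was not tested.

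**Figure D5:**
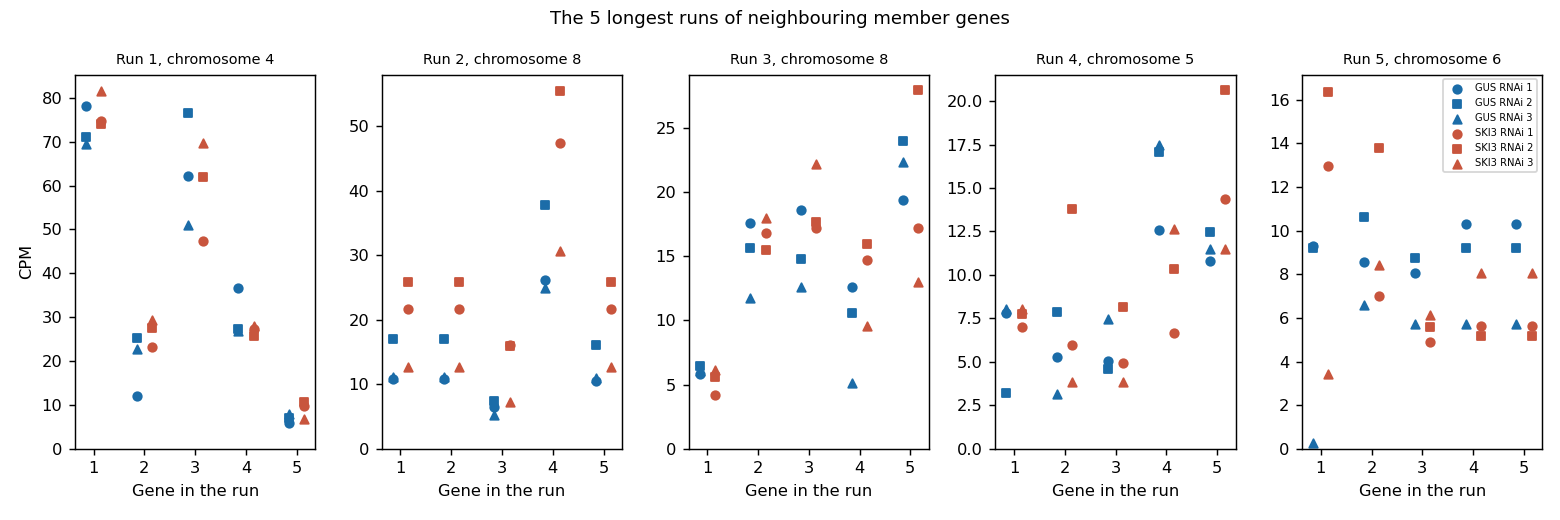
CPM of each gene in the 5 longest runs of neighbouring members, 1 point per library, with GUS RNAi and SKI3 RNAi in separate colours. Both groups overlap in most genes, and the 5 genes of the run from MtrunA17Chr8g0350501 (run 2) are all higher on average in SKI3 RNAi.

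The run with the highest level was on chromosome 4, from MtrunA17Chr4g0019651 to MtrunA17Chr4g0019671. Its 5 genes summed to 193 ± 14.5 CPM in GUS RNAi against 199 ± 16.6 CPM in SKI3 RNAi (SD, n = 3 each). MtrunA17Chr4g0019651 had 311, 154 and 242 counts in GUS RNAi against 213, 172 and 213 in SKI3 RNAi. MtrunA17Chr4g0019671 had 23, 15 and 28 counts in GUS RNAi against 28, 25 and 18 in SKI3 RNAi. Levels overlapped between the groups in both genes.

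A run on chromosome 8, from MtrunA17Chr8g0350501 to MtrunA17Chr8g0350541, summed to 74.6 ± 18.1 CPM in GUS RNAi against 118 ± 37.7 CPM in SKI3 RNAi (SD, n = 3 each). All 5 genes had a log2 fold change above 0. MtrunA17Chr8g0350501 and MtrunA17Chr8g0350511 had the same 6 counts, 43, 37 and 39 in GUS RNAi against 62, 60 and 33 in SKI3 RNAi. MtrunA17Chr8g0350541 had 42, 35 and 38 in GUS RNAi and again 62, 60 and 33 in SKI3 RNAi. These 3 genes may therefore hold the same reads and are not taken as separate measurements. In each of the 5 genes replicate 3 of SKI3 RNAi lay within the range of the GUS RNAi libraries.

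The other 3 runs of 5 differed less between the groups. The run from MtrunA17Chr8g0354681 to MtrunA17Chr8g0354721 summed to 67.8 ± 8.63 CPM in GUS RNAi against 73.9 ± 7.58 CPM in SKI3 RNAi (SD, n = 3 each). The run from MtrunA17Chr5g0413921 to MtrunA17Chr5g0413961 summed to 44.8 ± 3.07 and 46.5 ± 12.3 CPM. The run from MtrunA17Chr6g0483411 to MtrunA17Chr6g0483424 summed to 39.2 ± 13.1 and 38.7 ± 6.40 CPM. Its first gene, MtrunA17Chr6g0483411, had 37, 20 and 1 counts in GUS RNAi against 37, 38 and 9 in SKI3 RNAi, and its last pair, MtrunA17Chr6g0483423 and MtrunA17Chr6g0483424, had the same 6 counts.

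Some neighbours carried IDs that differ in the last digit alone. There were 70 such sets with 2 or more members, holding 155 members, and 14 of them held a pair with equal counts within 2 counts in each library. In 2 sets 1 gene had the sum of others within the same tolerance. MtrunA17Chr3g0127281 had 197, 127 and 231 counts in GUS RNAi against 225, 132 and 119 in SKI3 RNAi. MtrunA17Chr3g0127282 had 66, 35 and 76 in GUS RNAi against 66, 31 and 47 in SKI3 RNAi, and MtrunA17Chr3g0127284 had 131, 91 and 154 in GUS RNAi against 159, 101 and 72 in SKI3 RNAi. These last 2 add up to the first within 2 counts in every library. In the other set, MtrunA17Chr6g0465521 had 373, 213 and 245 counts in GUS RNAi against 416, 560 and 260 in SKI3 RNAi, which MtrunA17Chr6g0465522 and MtrunA17Chr6g0465523 add up to. MtrunA17Chr6g0466341, elsewhere on that chromosome, had 374, 215 and 248 in GUS RNAi against 417, 560 and 260 in SKI3 RNAi. These genes had the next highest SKI3 RNAi means of all members after MtrunA17Chr5g0430411, 162 CPM each, and SKI3 RNAi replicate 2 was highest in both.

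Equal counts also linked members on different chromosomes. The same 6 counts as another feature were found in 193 members, and 93 of them shared their counts with another member, in 35 groups. The largest group had 14 members on chromosomes 2 to 8, each with 33, 13 and 28 counts in GUS RNAi against 12, 10 and 15 in SKI3 RNAi. Its log2 fold change was -0.77 ± 0.300 (standard error) with an unadjusted edgeR p of 0.0277. Its 14 members may hold the same reads and are taken as 1 measurement. A group of 8 members had 33, 16 and 25 counts in GUS RNAi against 14, 11 and 13 in SKI3 RNAi, with a log2 fold change of -0.74. Both groups, 22 members in all, are among the 123 lower members at an unadjusted p under 0.05. With features of equal counts kept once, 270 members were at that limit, 174 higher and 96 lower. Sharing a member's counts were 118 features that are no member, of which 39 were 1 kb promoters, 30 were 3 kb promoters, 23 were terminal inverted repeat elements and 20 were LTR retrotransposons.

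Among 370 members with at least 500 counts, 33 (8.92%) had another member within 5% of their count in every library, in 14 groups, of which 5 spanned chromosomes. In the largest, MtrunA17Chr4g1019277 had 202, 123 and 167 counts in GUS RNAi against 143, 144 and 149 in SKI3 RNAi. MtrunA17Chr7g1032795 had 201, 127 and 167 in GUS RNAi against 141, 143 and 149 in SKI3 RNAi. Which of these loci the reads came from cannot be told apart in the counts.

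Members were also set beside the features around them, whose levels the rule did not use. Such a feature may share reads with its gene, and reads that chose the gene can then raise the feature too. Among features with a member's 6 counts, 39 were 1 kb promoters and 30 were 3 kb promoters. The 1 kb promoter of the gene was annotated for 3525 members, and 363 of these promoters (10.3%) had a GUS RNAi mean of at least 5 CPM, against 6.15% for genes under 5 CPM and 12.5% for genes at 100 CPM or more. For the 3 kb promoter it was 508 of 3519 (14.4%), against 11.3% and 15.6%. Of the tested member promoters, 555 of 1 kb and 802 of 3 kb, edgeR called 0 at an adjusted p under 0.05, as did DESeq2. Among 1 kb promoters 22 were higher and 18 lower at an edgeR p under 0.05 before adjustment, or 7.21% together. Among 3 kb promoters 24 were higher and 18 lower, or 5.24%, and over all tested features the share was 6.58%. DESeq2 gave 35 of the 1349 of these promoters for which it had a p (2.59%, against 2.49% of all features that edgeR tested).

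The next row was an annotated transposon or repeat region, here called an element, for 2393 members (64.5%). It was such an element for 37.6% of genes under 5 CPM and for 33.8% of genes at 100 CPM or more. Of the elements after a member, 317 (13.2%) had a GUS RNAi mean of at least 5 CPM, against 5.06% of those after genes under 5 CPM and 15.9% of those after genes at 100 CPM or more. Terminal inverted repeat elements were the most frequent with 937, followed by 591 LTR retrotransposons, which move through an RNA copy, and 441 helitrons, which move as DNA. Another 328 were repeat regions, 88 TRIM retrotransposons and 8 non-LTR elements. The classes of elements after other genes are not given, so this order was not set beside that of all annotated elements. Whether such an element overlaps the gene is not given in the tables, and gene length was not compared.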

How the data were processed

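The authors deposited, per sample, whole-number counts of small RNA reads per annotated feature without normalization. Per the labels' protocols, Trizol RNA went into NEBNext small RNA libraries. Per the submitters' processing notes, cutadapt 2.10, Bowtie 1.3.1 and DESeq2 1.34.0 were used. Genome build, alignment settings, strand and the treatment of reads with several alignments are not given in the sources used here. A stray header line in 1 table was dropped. Molecular identifiers are not mentioned, so floors cover counting error only.

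CPM was computed from the total of each table. Differences were tested on the deposited counts of the whole table with edgeR 4.0.16 in R 4.3.3 (TMM, filterByExpr at a minimum count of 10, quasi-likelihood test, group only, Benjamini-Hochberg adjustment). DESeq2 1.42.0 was an alternative. Single values were compared with exact permutation tests. The fit was tested on simulated counts of 48283 features: of 200 changed features, 10% were recovered at 2-fold, 79% at 4-fold and 81.5% at 8-fold, with 2 to 6 false calls, and 0 were called with no change.

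Members, lists and tests were chosen with earlier results of these data known. Named genes were the 5 longest runs, the 10 higher and 10 lower members with the smallest p, the 3 highest and 3 lowest SKI3 RNAi means, genes beside each limit, the ratio member with the most counts, the largest group of equal counts and 2 genes known from earlier results. Other genes named as examples were chosen after their values were seen. IDs stand as deposited, since none matched the RefSeq gene table used here.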

Additional observations from a re-analysis of the deposited data

How the results depend on the processing

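The count of members past an adjusted p of 0.05 was 0 with all 6 libraries and 16 (4 higher, 12 lower) with no filter on low counts. Leaving out 1 library gave 0 to 173 such members, with SKI3 RNAi replicate 1 left out at 173 and SKI3 RNAi replicate 3 left out at 1. The share of all tested features past this limit is not given for these settings. At an unadjusted edgeR p under 0.05 there were 307 members (8.29%, against 6.58% of all tested features). This became 476 without a filter (12.8% against 4.64%). DESeq2 gave 153 (4.15%, against 0.574% of its features, not filtered on low counts). At 10 to under 50 CPM it was 128 of the 1506 tested members (8.50% against 6.58%). With 1 library left out the lowest was 199 without SKI3 RNAi replicate 2 (5.37% against 4.99%). The highest was 468 without SKI3 RNAi replicate 3 (12.6% against 8.94%). Of the 307, 59.9% were higher in SKI3 RNAi. That share was 76.9% with total counts in place of TMM, which moved the median of all tested features to 0.12, and 27.8% without SKI3 RNAi replicate 1. The members' median log2 fold change of 0.03 became 0.13 with total counts, -0.049 without a filter and 0.16 with members taken from SKI3 RNAi levels, and ran from -0.0018 to 0.089 with 1 library left out. For promoters, the count of 0 became 15 without a filter and 0 to 13 with 1 library left out. At an unadjusted p under 0.05 there were 82 of 1357 tested promoters (6.04%). The tested set changed with the setting: 316 of 6529 (4.84%) without a filter, 161 of 3170 (5.08%) at 1 CPM or more in 3 libraries, 48 of 6521 (0.736%) with DESeq2, 31 of 557 (5.57%) for members at 10 to under 50 CPM and 65 to 127 with 1 library left out.

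The difference in share of member counts changed sign on chromosome 2 (0.0013 percentage points) and chromosome 8 (0.023) at 10 to under 50 CPM, and on chromosome 2 without the members of both ratios (0.017). With 1 library left out it ran from -0.30 to 0.055 on chromosome 2 and from -0.20 to 0.30 on chromosome 4. The 870 members in runs became 1325 with 1 other gene allowed between members, and at 10 to under 50 CPM 113 runs held 236 members. The cause of these changes was not tested beyond the fewer or more genes and libraries that each setting holds. Alternatives on the ratios, on row order and on IDs differing in the last digit were chosen after seeing the data.

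With the replicate number as a block, 0 members passed an adjusted p of 0.05 and 493 had an unadjusted p under 0.05 (337 higher, 156 lower). These were 13.3% of tested members, against 7.98% of all tested features in that fit. Deviations of same-numbered libraries correlated at 0.0685, 0.179 and 0.251, and the first is not over 0.1, so the pairing was not used. In the simulated data, 10% of features changed 2-fold were recovered over all levels. Recovery was not split by level, so recovery at the level of the lowest members is not given. The simulation gave all features the same dispersion and held no genes set apart by a single library.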
